A study of Mus musculus with 12 samples.

Results

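The genes described here are 8 oncofetal and secreted tumour markers, Gpc3, Golm1, Ly6d, Robo1, Tff3, Slpi, Spink3 and Cbr3. They were measured by 10 of the 55681 probes of a whole-genome mouse array and make up 8 of the 34741 gene names on it. All probes carrying one of these names were taken. The genes were selected on their measured log2 signals on these 12 arrays, where earlier results had shown high tumour values, so every tumour value below is a description and carries no test. Signals were higher in tumours than elsewhere for 7 of the 8 genes, a direction that the selection favoured. Cbr3 had about the same signal in tumours as elsewhere. No fetal liver and no secreted protein was measured, so the label itself was not tested.

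RNA came from livers of F2 male C3H/HeN mice aged about 74 weeks and was hybridised to 12 arrays, 3 in each of 4 groups. The control non-tumour group was non-tumour liver of F2 males descended from F0 dams that drank plain tap water in pregnancy. The arsenite normal, arsenite non-tumour and arsenite tumour groups came from F2 males descended from F0 dams that drank water with 85 ppm sodium arsenite on gestation days 8 to 18. The F1 males and females of both lines were mated at the age of 10 weeks, and neither the F1 nor the F2 mice were given arsenite. All mice were of a single strain, and the labels do not say how normal liver differed from non-tumour liver, or whether equally numbered samples came from the same mouse. The design text also lists normal liver and tumours of the control line, and these were not analysed here.

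Values are log2 signals relative to the array's own 75th percentile, so that 0 marks a probe at that percentile and each step of 1 is a doubling. A probe counted as detected where the scanner software marked it as well above background. The arrays detected 21834 to 25401 probes each, and 18101 genes passed a filter that asked for detection on all 3 arrays of at least 1 group. All 8 genes passed it, but Gpc3 and Robo1 did so only through tumours. Hepatocyte markers were present throughout, with 8 of 8 detected on every array and summed levels of 4295 to 5312 times the 75th percentile in tumours against 4731 to 6123 elsewhere. Each slide held arrays of a single group except for 1 slide that carried the control and arsenite non-tumour arrays, so slide and group cannot be told apart in any comparison with tumours or with normal liver. In whole tissue, fewer cells of a type and less RNA per cell cannot be told apart either.

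Oncofetal genes are expressed in fetal liver or other immature tissue, are largely silent in adult liver and can be expressed again in liver cancer. Gpc3 encodes glypican-3, a heparan sulfate proteoglycan tethered to the cell surface that modulates growth factor signalling, and Golm1 encodes a Golgi membrane protein whose shed form circulates in blood. Both are used as markers of hepatocellular carcinoma. Tff3, Slpi and Spink3 encode small secreted proteins of mucosal and glandular epithelia, Ly6d a surface protein anchored in the membrane by a lipid, Robo1 the receptor of the Slit guidance proteins, and Cbr3 a cytosolic carbonyl reductase.

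Promoters are shown for 4 of the genes because they differ widely in base composition although 3 of them had high tumour signals and the fourth, Cbr3, did not. RefSeq promoter entries on GRCm38.p6 were matched by symbol for 5 of the 8 genes. The 250 bases before the start site are given on the gene's own strand, 5′ to 3′, in lower case with motif matches in capitals.
Gpc3 chrX:52613975-52614224 (minus strand): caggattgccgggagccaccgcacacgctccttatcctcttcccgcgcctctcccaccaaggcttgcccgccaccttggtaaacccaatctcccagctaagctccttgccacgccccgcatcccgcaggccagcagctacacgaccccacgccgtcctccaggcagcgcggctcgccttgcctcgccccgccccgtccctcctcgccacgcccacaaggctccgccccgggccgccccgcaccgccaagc
Golm1 chr13:59675785-59676034 (minus strand): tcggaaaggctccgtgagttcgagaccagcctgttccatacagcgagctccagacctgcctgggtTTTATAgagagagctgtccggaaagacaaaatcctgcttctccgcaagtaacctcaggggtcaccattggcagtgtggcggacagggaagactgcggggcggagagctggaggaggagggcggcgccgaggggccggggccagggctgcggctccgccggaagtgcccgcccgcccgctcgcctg
Slpi chr2:164356508-164356757 (minus strand): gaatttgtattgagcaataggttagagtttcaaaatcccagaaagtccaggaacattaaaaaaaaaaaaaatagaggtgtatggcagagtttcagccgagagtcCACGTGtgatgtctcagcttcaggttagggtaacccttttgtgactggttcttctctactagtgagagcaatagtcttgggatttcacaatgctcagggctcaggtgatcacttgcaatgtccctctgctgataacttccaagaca
Cbr3 chr16:93682969-93683218 (plus strand): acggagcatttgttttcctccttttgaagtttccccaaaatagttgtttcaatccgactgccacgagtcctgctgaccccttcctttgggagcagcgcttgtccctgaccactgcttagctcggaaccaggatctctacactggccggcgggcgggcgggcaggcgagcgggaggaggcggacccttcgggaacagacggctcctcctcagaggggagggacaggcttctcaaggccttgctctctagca
The Gpc3 promoter was 71.6% G and C with 25 CG pairs in these 250 bases, and 92.7% of the 32851 RefSeq promoters had a lower share. Golm1 followed with 65.6% and 20 CG pairs, Cbr3 with 59.6% and 14, and Robo1 with 56.0% and 11. Slpi had 42.0% and 2 CG pairs, a share that only 15.9% of promoters undercut. Both strands of 300 bases, reaching 50 bases past the start, were searched for 6 motifs. The TATA box was spelled TATAAA and the E-box CACGTG. The AP-1 site was spelled TGACTCA. The core of the antioxidant response element, which NRF2 binds, was spelled TGACNNNGC. The TCF/LEF core was spelled CTTTGA. The STAT site was spelled TTCNNNGAA. The search gave 2 matches in the 5 promoters. Slpi held CACGTG at position -146 from the start, a motif present in 7.15% of promoters, and Golm1 held TATAAA on the opposite strand at -185, a motif present in 13.6%. The other 4 motifs are found in 5.20% to 16.0% of promoters, and no match says only that the letters are not in this window.

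The signals of 7 of the 8 genes were higher on all 3 tumour arrays than on any of the 9 other arrays, a pattern that 15.2% of all genes tested showed (2760 of 18101). For the 5 of them that were also detected outside tumours, the tumour means lay 5.38 to 9.69 log2 units above those of arsenite non-tumour liver, and for Gpc3 and Robo1 only bounds can be given. The choice of the genes fixed this direction, and only its size and its variation are described.

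**Figure D1:**
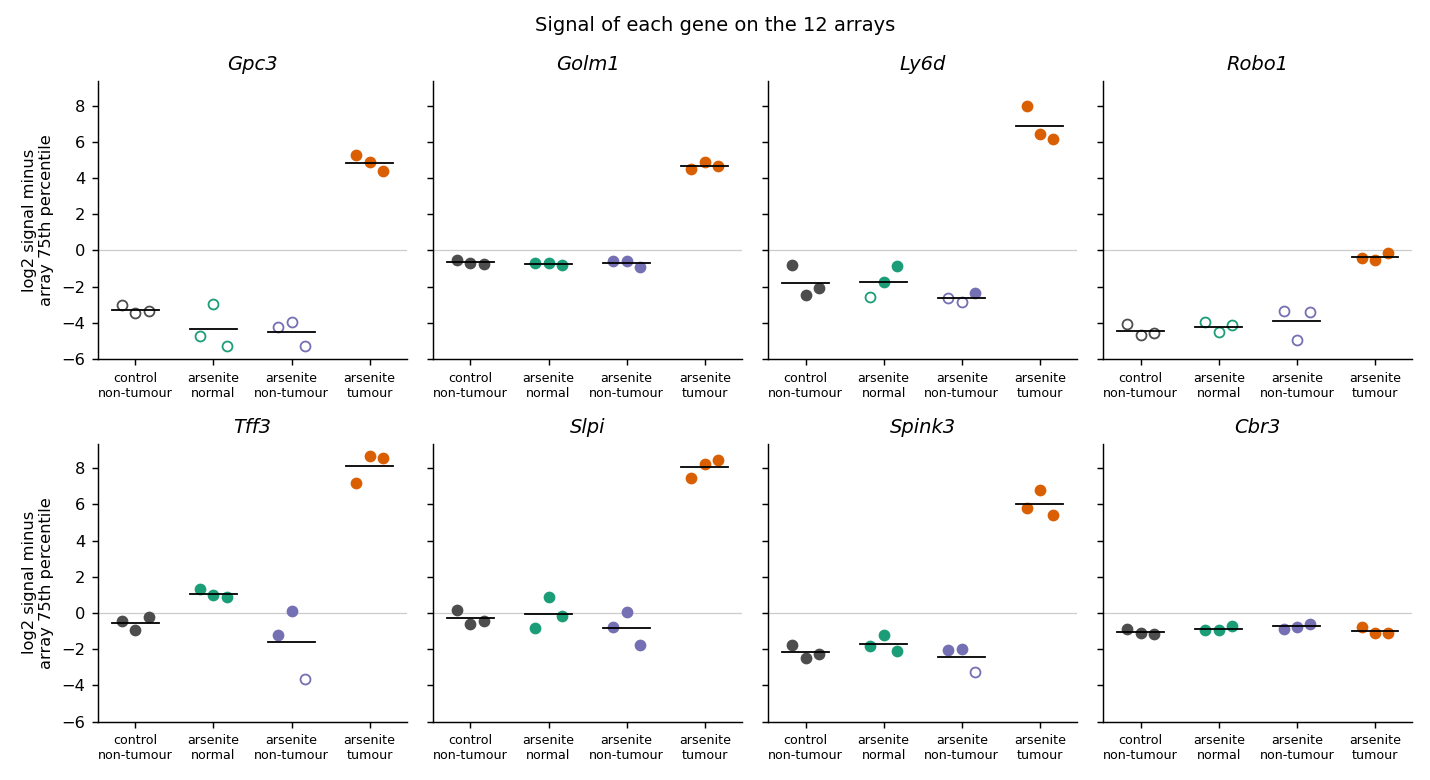
Log2 signal relative to the array's 75th percentile (y axis) of the 8 genes on the 12 arrays, by group (x axis). Points are arrays, filled where the probe was well above background and open where it was not, and bars are group means. The 3 tumour arrays stand apart in 7 panels, while the Cbr3 panel runs level between -1.15 and -0.58.

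Gpc3 was silent at the limit of the array outside tumours. Its probe lies on chromosome X (mm9, 49625740 to 49625799). The 3 tumours gave 5.26, 4.91 and 4.38 (mean 4.85 ± 0.44, SD, n = 3), which is 38.2, 30.0 and 20.9 times the 75th percentile. None of the 9 other arrays detected it, with values of -3.00, -3.46 and -3.36 in control non-tumour liver, -4.75, -2.95 and -5.27 in arsenite normal liver and -4.22, -3.96 and -5.30 in arsenite non-tumour liver. These 9 values are background and have no order. A bound on the fold was computed against, for each array of the lower group, the higher of the dimmest signal detected on that array and the probe's own signal. By it Gpc3 was at least 285-fold higher in tumours than in arsenite non-tumour liver, at least 235-fold higher than in arsenite normal liver and at least 226-fold higher than in control non-tumour liver. A second Gpc3 probe, designed on transcript AK077942, was not detected on any array, with -5.61 to -5.38 in tumours and -5.30 to -4.75 elsewhere, so the tumour signal rests on the RefSeq probe alone.

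Golm1 was even within every group. Its probe on chromosome 13 (mm9, 59736466 to 59736525) was detected on all 12 arrays. The tumours gave 4.50, 4.87 and 4.65 (4.67 ± 0.19, SD, n = 3). Control non-tumour liver gave -0.54, -0.70 and -0.75, arsenite normal liver -0.71, -0.71 and -0.82, and arsenite non-tumour liver -0.60, -0.60 and -0.92. The 3 groups outside tumours overlapped one another, with means of -0.66, -0.75 and -0.71. Tumours exceeded them by 5.34 ± 0.12, 5.42 ± 0.12 and 5.38 ± 0.12 (SE of the fit, n = 3 per group), which is 40.5-fold, 42.8-fold and 41.7-fold.

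Ly6d, a member of the Ly6 family of lymphoid and epithelial surface proteins, varied more. The tumours gave 7.97, 6.43 and 6.16 (6.86 ± 0.98, SD, n = 3), with tumour 1 well above the other two. The probe on chromosome 15 (mm9, 74592551 to 74592610) read -0.80, -2.47 and -2.10 in control non-tumour liver, -2.59, -1.77 and -0.86 in arsenite normal liver, and -2.65, -2.83 and -2.35 in arsenite non-tumour liver. It was detected on 3, 2 and 1 of the 3 arrays of these groups. Their ranges overlapped, and the arsenite non-tumour mean of -2.61 ± 0.24 was the lowest. Tumours lay 8.64 ± 0.58 above control non-tumour liver (400.1-fold), 8.60 ± 0.58 above arsenite normal liver (387-fold) and 9.47 ± 0.58 above arsenite non-tumour liver (707-fold, from measured signals of which only 1 in the lower group was detected).

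Robo1, which carries Slit signals that steer migrating cells and growing axons, stayed below the 75th percentile even in tumours, at 0.697 to 0.887 times it. Its RefSeq probe on chromosome 16 (mm9, 73046190 to 73046249) gave -0.40, -0.52 and -0.17 there (-0.36 ± 0.18, SD, n = 3) and was detected on all 3 arrays. It was detected on none of the other 9, which read -4.05, -4.69 and -4.54 in control non-tumour liver, -3.98, -4.52 and -4.12 in arsenite normal liver and -3.33, -4.97 and -3.42 in arsenite non-tumour liver, all of them background. The folds were at least 7.68 against arsenite non-tumour liver, at least 6.98 against arsenite normal liver and at least 6.09 against control non-tumour liver. A second probe, on transcript ENSMUST00000114274, was not detected on any of the 12 arrays.

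Tff3, a trefoil peptide secreted with mucus and known for epithelial repair, had tumour values of 7.17, 8.66 and 8.54 (8.12 ± 0.83, SD, n = 3). Its probe lies on chromosome 17 (mm9, 31262279 to 31262338). Its values outside tumours differed from group to group, although no such difference passed the test given below. Control non-tumour liver gave -0.41, -0.92 and -0.23, and arsenite normal liver gave 1.31, 0.99 and 0.91. Arsenite non-tumour liver gave -1.19, 0.12 and -3.65, the last of which was not detected. Group means therefore ran from -1.57 ± 1.91 in arsenite non-tumour liver through -0.52 ± 0.35 in control non-tumour liver and 1.07 ± 0.21 in arsenite normal liver to tumours, and of the neighbours in this order only the first pair overlapped. Tumours exceeded arsenite normal liver by 7.05 ± 0.77 (133-fold), control non-tumour liver by 8.64 ± 0.77 (399.9-fold) and arsenite non-tumour liver by 9.69 ± 0.77 (828-fold). The last value depended on single arrays, being 403-fold without arsenite non-tumour array 3 and 1488-fold without array 2 of that group.

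Slpi, the secretory leukocyte protease inhibitor that protects epithelia from neutrophil elastase, was detected on all 12 arrays. Tumours gave 7.49, 8.24 and 8.45 (8.06 ± 0.51, SD, n = 3), or 179, 302 and 351 times the 75th percentile. The probe, on chromosome 2 (mm9, 164179849 to 164179908), read 0.19, -0.58 and -0.44 in control non-tumour liver, -0.82, 0.89 and -0.18 in arsenite normal liver and -0.75, 0.08 and -1.78 in arsenite non-tumour liver. These 3 groups overlapped, with means of -0.28, -0.04 and -0.82. Tumours were 323-fold, 274-fold and 469-fold higher, respectively.

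Spink3 encodes a Kazal-type inhibitor that holds trypsin in check, is best known from the pancreas and is named Spink1 in RefSeq. Its probe lies on chromosome 18 (mm9, 43887802 to 43887858). The tumours gave 5.79, 6.82 and 5.41 (6.01 ± 0.73, SD, n = 3). The other arrays lay between -3.27 and -1.20, at -1.74, -2.50 and -2.24 in control non-tumour liver, -1.84, -1.20 and -2.07 in arsenite normal liver and -2.02, -2.001 and -3.27 in arsenite non-tumour liver, and the probe was detected on 8 of these 9 arrays. Their groups overlapped. Tumours were 287-fold higher than control non-tumour liver, 209.6-fold higher than arsenite normal liver and 346-fold higher than arsenite non-tumour liver.

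Cbr3, which reduces carbonyl groups on drugs and endogenous compounds with NADPH, did not stand apart in tumours. Its probe on chromosome 16 (mm9, 93691120 to 93691179) was detected on all 12 arrays. The tumours gave -0.75, -1.09 and -1.08 (-0.97 ± 0.19, SD, n = 3), within the range of -1.15 to -0.58 set by the other 9 arrays. Control non-tumour liver gave -0.88, -1.09 and -1.15, arsenite normal liver -0.93, -0.93 and -0.71, and arsenite non-tumour liver -0.89, -0.75 and -0.58. Tumours differed by -0.23 ± 0.13 from arsenite non-tumour liver, by -0.12 ± 0.13 from arsenite normal liver and by 0.06 ± 0.13 from control non-tumour liver (SE, n = 3 per group), and they overlapped every group.

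**Figure D2:**
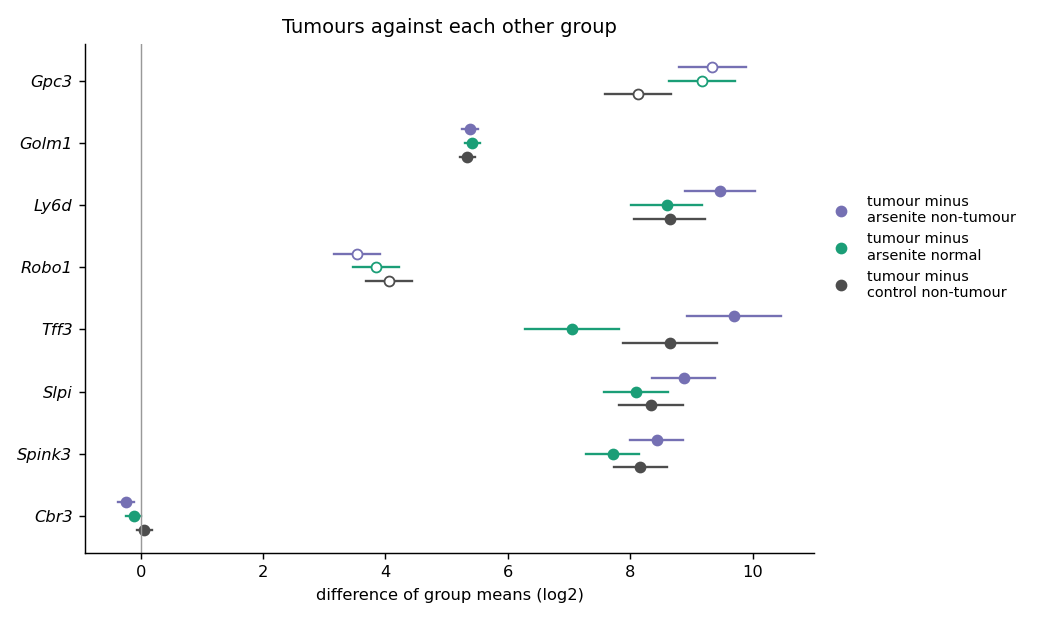
Difference of the tumour mean from each other group (x axis, log2) for the 8 genes (y axis), with bars of 1 SE of the fit (n = 3 arrays per group). Open points have a lower group in which no array detected the probe, so that the difference is not a measured fold. Golm1 lies between 5.34 and 5.42 in all 3 comparisons, Tff3 between 7.05 and 9.69, and Cbr3 around 0.

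The size of these differences depended on how background was handled. With the normexp correction, which adds an offset of 50 to every signal, the difference between tumours and arsenite non-tumour liver was 6.28 for Gpc3, 1.37 for Robo1, 7.75 for Ly6d and 7.06 for Spink3, 8.47 for Tff3, 8.15 for Slpi and 4.93 for Golm1. For Gpc3 and Robo1 this correction put the difference below the bounds given above, which hold only for the processed signals without it. The 3 tumour comparisons share their tumour arrays and are not independent of one another.

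The tumours did not rank alike for these genes. Tumour 1 had the highest value of Gpc3, Ly6d and Cbr3 and the lowest of Golm1, Tff3 and Slpi. Tumour 2 was highest for Golm1, Tff3 and Spink3, and tumour 3 for Robo1 and Slpi. The span between the highest and the lowest tumour was 1.81 for Ly6d (3.51-fold), 1.49 for Tff3 (2.81-fold), 1.42 for Spink3 (2.67-fold), 0.97 for Slpi and 0.87 for Gpc3. Wider spans among tumours were found in only 2.11%, 3.42%, 3.88%, 8.94% and 11.1% of the genes detected on all 3 tumour arrays, respectively. Golm1 (0.37), Robo1 (0.35) and Cbr3 (0.33) spanned about as much as the typical gene among these, with 43.5%, 47.1% and 49.3% of them wider.

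**Figure D3:**
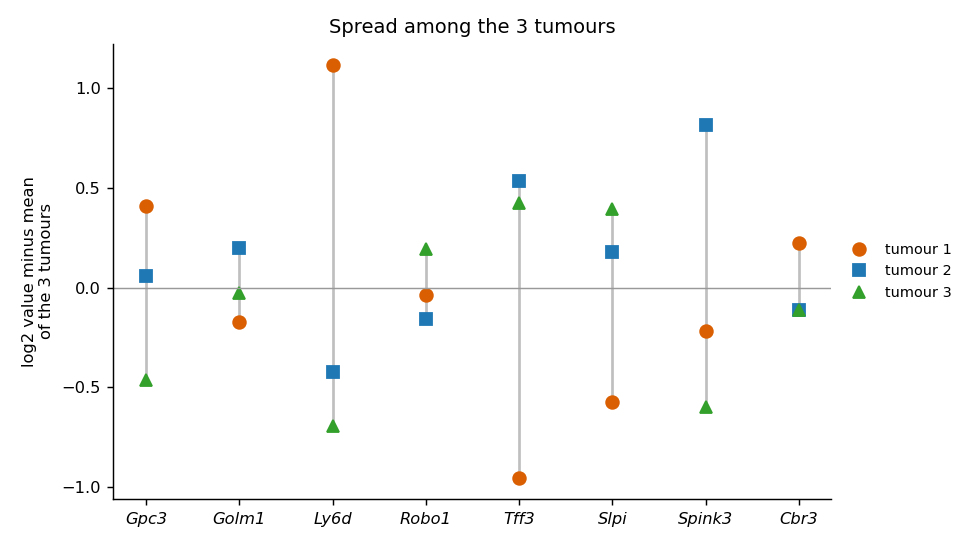
Each tumour's log2 value minus the mean of the 3 tumours (y axis) for the 8 genes (x axis). Symbols mark tumours 1 to 3 and grey lines the span between them. Tumour 1 is at the top for Ly6d and at the bottom for Tff3, and the span runs from 0.33 for Cbr3 to 1.81 for Ly6d.

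Profiles over the 12 arrays were compared after setting each gene relative to its mean over the 9 arrays outside tumours. Likeness was the root mean square difference in log2 units, where smaller is closer. Gpc3 and Robo1 were detected on none of the 9 baseline arrays, so every distance that involves them rests partly on background values. Among the 8 genes the closest pair was Slpi and Spink3 at 0.50, followed by Gpc3 and Slpi at 0.71 and Gpc3 and Spink3 at 0.79. Golm1 was closest to Robo1 at 0.93, and Cbr3 was far from every other gene (2.002 to 4.57). Among 17186 genes detected in all tumours, the sulfotransferase gene Sult2a6 was the closest to both Gpc3 (0.73) and Slpi (0.54) and the second closest to Tff3 (1.18), for which Inava was the closest (1.15). Sult2a6, Gldn, Inava, Kif5c, Sh3gl3, Psrc1 and the transcript named below were detected on none of the 9 arrays outside tumours, and the same holds for their distances. Gldn came second for Gpc3 (0.82), Tspan8, a tetraspanin of epithelial tumours, second for Slpi (0.74), and the kinesin gene Kif5c first for Ly6d (0.72). Golm1 was nearest to Nid1, a basement membrane glycoprotein (0.18), and Sh3gl3 (0.19), Robo1 to Uap1l1 (0.40) and the ATP-gated channel gene P2rx7 (0.41), and Cbr3 to Hsf2 (0.11) and Azi2 (0.12). For Spink3 the nearest was the transcript ENSMUST00000077710 (0.48), also second for Ly6d (0.79), and then Psrc1 (0.50). These likenesses describe 12 arrays of which 9 form a common baseline and say nothing about shared function.

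Relatives of the 8 genes were listed by family and pathway. Of 157 listed genes 152 had a probe and 90 were tested. In tumours against arsenite non-tumour liver, limma's moderated test at an adjusted p under 0.05 called 58 of them, 34 higher and 24 lower. Over all 18101 genes it called 47.1%, with 17.1% higher and 30% lower. The median difference of the relatives was 0.07, beside -0.13 over all genes tested. Against arsenite normal liver 61 were called, 34 higher and 27 lower (48.1% of all genes called, 17.2% higher and 31% lower), and against control non-tumour liver 61, 36 higher and 25 lower (49.2% of all genes called, 16.9% higher and 32.3% lower). Of the 34 genes called higher, 7 had passed the filter only through tumours, which favours that direction. Without the 10 such relatives 27 of 80 were called higher (33.8%), and without the 1024 such genes on the whole array 14.5%. The 7 were Afp, Golm2, Gpc6, Plaur, Srgap1, Timp1 and Wfdc3, and their values below are descriptions. Of the 58 calls, 42 held under every one of the alternative settings and left-out arrays. With equal sample numbers as a block, 9 calls were lost over 6 arrays, those of Golga2, Golga5, Hmox1, Hpn, Ly6g, Muc5ac, Robo4, Spink6 and Srgap2, and over 12 arrays those of Robo4 and Spink6. The block also gave calls that the fit without it did not, for Prtn3, Sox9, Spint1 and Tmprss2 over 6 arrays and for Lypd2, Prtn3 and Spint1 over 12.

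Of the glypicans, cell-surface proteoglycans built like Gpc3, 3 were tested and all 3 were called higher in tumours, beside 17.1% of all genes. Gpc6 passed the filter only through tumours, which favours its call. Without such genes 2 of 2 glypicans were higher, beside 14.5% on the whole array. Gpc1 gave 2.41, 2.34 and 1.79 in arsenite non-tumour liver and 3.62, 4.33 and 4.002 in tumours, a rise of 1.80 ± 0.20 (SE, n = 3 for each group, limma adjusted p = 4.5e-05). Gpc6 was at least 3.63-fold higher, since no non-tumour array detected it. Gpc4, the neighbour of Gpc3 on chromosome X, rose by 0.59 ± 0.12 (adjusted p = 0.0028), but its second probe read 0.04 and the call was lost on the mean of both probes (adjusted p = 0.082). The other 2 listed glypicans did not pass the filter. All 3 were called in the same direction against the other groups too.

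Enzymes that assemble and trim heparan sulfate, the sugar chain that glypicans carry, were called in both directions. Of 13 tested, 1 rose, 4 fell and 8 were not called, a share of 38.5% called beside 47.1% of all genes, with a median of -0.15. Hs2st1, a 2-O-sulfotransferase, rose by 1.74 ± 0.23 (adjusted p = 0.00015). Extl1, a chain-elongating enzyme, fell by 2.72 on the log2 scale (SE 0.19, adjusted p = 2.0e-06), heparanase (Hpse), which cuts the chains, fell by 1.39, the 6-O-sulfotransferase Hs6st1 by 0.73 and the N-deacetylase Ndst1 by 0.64. Notum had a difference of -0.06 ± 0.14.

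Golm2, the nearest relative of Golm1, was detected in tumours at 1.02, 1.499 and 1.17 and on no array of arsenite non-tumour liver (-4.71, -4.69 and -5.13). It was at least 23.2-fold higher in tumours. Of 9 tested Golgi membrane proteins 5 were called higher and 0 lower in this comparison, beside 17.1% and 30% of all genes. Without Golm2, which passed the filter only through tumours, 4 of 8 were higher, beside 14.5% on the whole array without such genes. Against arsenite normal liver 4 were higher and 1 was lower, Golgb1, which differed by -0.40 (limma adjusted p = 0.035) and lost the call with quantile normalisation (0.10). Tmem165 rose by 0.70 ± 0.10 and the sorting receptor Sort1 by 1.32 ± 0.30, although another probe of Sort1 read -0.29 and the call was lost on the mean of its probes (adjusted p = 0.084). Golga2 and Golga5 differed by 0.34 and 0.35, and both calls were lost when arrays were scaled to the median. The protease Furin, at 0.35 ± 0.16, was not called.

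The Ly6 and uPAR family split. Of 10 tested, Plaur and Cd59b passed the filter only through tumours. Without these, 2 of 8 rose, beside 14.5% on the whole array without such genes. With them 3 rose and 4 fell, beside 17.1% and 30% of all genes. The rises were Plaur, the receptor of urokinase, at 2.70 ± 0.43, Lynx1, the gene next to Ly6d, at 1.45 ± 0.15 (adjusted p = 2.6e-05) and Ly6e at 1.001 ± 0.21. Ly6a, also known as Sca-1, fell from 5.28, 4.37 and 5.56 in arsenite non-tumour liver to 1.88, -0.32 and 2.17 in tumours, by 3.83 on the log2 scale (SE 0.54, adjusted p = 0.00025). The complement inhibitor Cd59a fell by 0.995. Ly6c1 fell by 2.09 on its brighter probe, whereas its other probe read 0.60, and it has a near-identical copy whose signal the array may not separate. Ly6g was called lower at -0.46, a call lost under 9 alternatives.

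Trefoil peptides and mucins gave almost nothing to compare. Tff1 and Tff2, which lie directly beside Tff3 on chromosome 17, had probes that did not pass the filter. Of 14 listed genes only Muc20 and Muc5ac were tested. Muc5ac differed by -0.54 ± 0.19 and was called, a call lost under 9 alternatives, and Muc20 by -0.26 ± 0.24 was not.

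Inhibitors with the WAP fold of Slpi or the Kazal fold of Spink3 moved in both directions, with 3 higher and 3 lower of 9 tested. Their median was -0.07, and over all genes 17.1% were higher and 30% lower. Without Spint1 and Wfdc3, which passed the filter only through tumours, 2 of 7 were higher, beside 14.5% on the whole array without such genes. Wfdc15b rose by 4.86 ± 0.34 (29.1-fold, adjusted p = 2.2e-06) and Wfdc12 by 3.61 ± 0.19 (12.2-fold, adjusted p = 4.1e-07), and Wfdc3 was at least 1.78-fold higher. Wfdc21 gave 8.85, 8.90 and 8.61 in arsenite non-tumour liver and 5.10, 2.84 and 4.798 in tumours, and fell by 4.54 (SE 0.45, adjusted p = 2.3e-05). Wfdc1 fell by 2.20. Spink6 was called lower in tumours, where no array detected it, but that call was lost under 12 alternatives. Of the proteases such inhibitors hold, 7 were tested, and 2 were called higher and 2 lower, with a median of -0.26. The rises were the kallikrein Klk1 by 2.91 ± 0.30 and the membrane protease St14 by 1.55 ± 0.30. Among the falls was Hpn (-0.29, limma adjusted p = 0.015), a call lost with quantile normalisation (adjusted p = 0.51). The neutrophil proteases Elane (-0.26 ± 0.17) and Prtn3 (2.16 ± 0.92) were not called.

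Around Robo1, 8 of 9 tested genes of Slit signalling were called, 5 higher and 3 lower. Over all genes 47.1% were called, 17.1% higher and 30% lower. Without Srgap1, which passed the filter only through tumours, 4 of 8 were higher, beside 14.5% on the whole array without such genes. The adaptor Nck2, which couples Robo receptors to the cytoskeleton, rose by 2.06 ± 0.29 (adjusted p = 0.00021) and Srgap1, which acts downstream of Robo receptors, by 0.95 ± 0.28, whose call was lost without arsenite non-tumour array 1 (adjusted p = 0.061). Gpc1, which also binds Slit proteins, is counted here again. Ntn1, the guidance cue netrin-1, was detected on all 3 arrays of arsenite non-tumour liver and on no tumour, at least 3.81-fold lower (adjusted p = 7.4e-07). The netrin receptor gene Dcc fell by 1.01. The call of Robo4 (0.35) was lost on scaling to the median (adjusted p = 0.26), and that of Srgap2 (-0.43) on the mean of its probes (adjusted p = 0.94). Robo2 did not pass the filter.

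Genes around Cbr3 changed although Cbr3 did not stand apart. Of 15 tested carbonyl reductases and companions driven by NRF2, the regulator of antioxidant enzymes, 4 rose and 7 fell, with a median of -0.35. The shares of all genes were 17.1% higher and 30% lower. The rises were the NADPH-producing enzymes G6pdx (3.05 ± 0.18, adjusted p = 8.5e-07) and Pgd (0.98 ± 0.17), Nfe2l2, which encodes NRF2 (1.02 ± 0.13), and sulfiredoxin (Srxn1, 0.80 ± 0.16). Dcxr fell by 1.21, Gclm by 0.96, Gstm3 by 1.45 and Cbr4 by 0.49. Nqo1 fell by 2.42 (SE 0.74, adjusted p = 0.021), with tumour values of -5.46, -2.60 and -1.93 against -1.27, -1.41 and -0.04, and the call was lost without arsenite non-tumour array 3 (adjusted p = 0.076). Cbr1, the closest relative and immediate neighbour of Cbr3, differed by -0.46 ± 0.14 (adjusted p = 0.020), a call lost with quantile normalisation (adjusted p = 0.19).

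Other listed markers of liver tumours, not all of them secreted or membrane proteins, rose in 9 of 14 tested cases and fell in none. Their median was 2.53. Over all genes 17.1% were higher and 30% lower. Without Afp and Timp1, which passed the filter only through tumours, 7 of 12 were higher, beside 14.5% on the whole array without such genes. The marker list was compiled from genes known for high levels in liver tumours, with earlier results of these arrays known, so its count is not independent evidence of the direction. Alpha-fetoprotein (Afp), the classic oncofetal serum marker, was undetected in arsenite non-tumour liver and read 9.12, 7.75 and 6.80 in tumours, at least 2168-fold higher. Tumour 1 was thus highest for Afp as it was for Gpc3, Ly6d and Cbr3, while it was lowest for Golm1, Tff3 and Slpi. Tspan8 rose by 8.43 ± 0.28, the stem-cell marker Prom1 by 6.61 ± 0.28, lipocalin-2 (Lcn2) by 5.08 ± 0.69, Anxa2 by 3.20 ± 0.20, Sox4 by 2.69 ± 0.26, Cd24a by 2.38 ± 0.27 and midkine (Mdk) by 1.18 ± 0.13. Timp1 was at least 5.62-fold higher. Krt19, Sox9, Spp1, Cd44 and Akr1b8 were not called, with differences of -0.19 to 0.43.

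**Figure D4:**
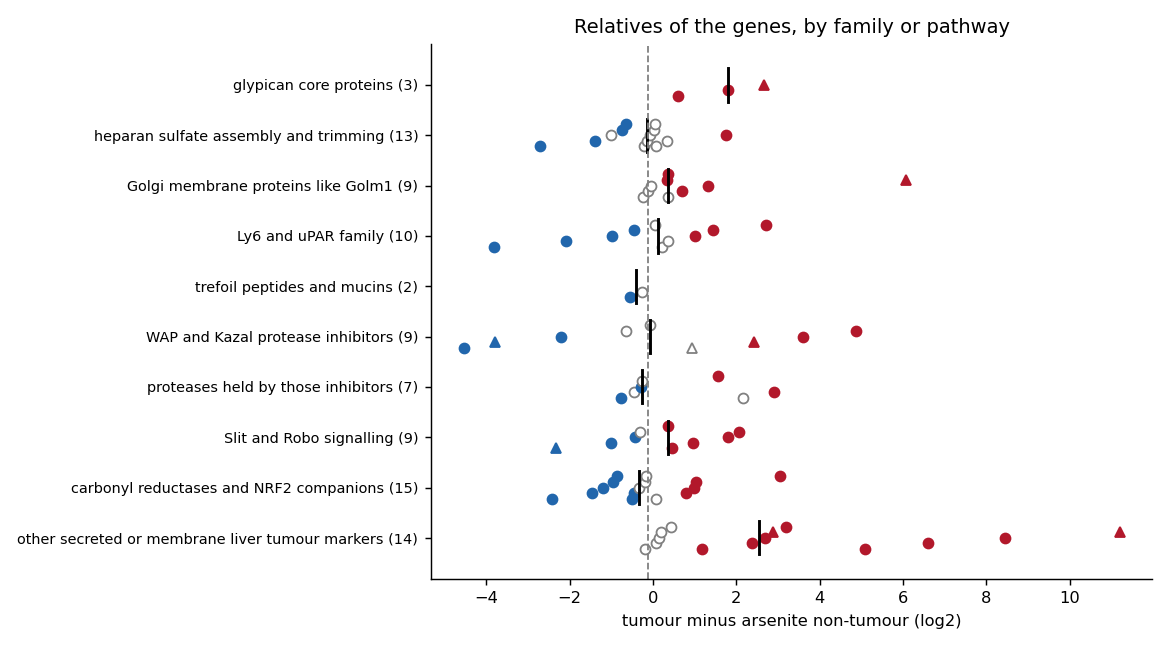
Difference between tumours and arsenite non-tumour liver (x axis, log2) for tested relatives, by family or pathway (y axis, number tested in brackets). Red and blue points were called higher and lower by limma at an adjusted p under 0.05, open points were not called, triangles mark genes with a group in which no array detected the probe, black bars are list medians and the dashed line is the median of all genes (-0.13). The glypicans and the tumour marker list lie to the right, with medians of 1.80 and 2.53, and the other lists spread around the dashed line.

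The genes next to the 8 markers were looked up after their values had been seen. Within 5 genes on either side, 33 of the 80 neighbours were tested and 8 were called higher and 11 lower in tumours against arsenite non-tumour liver. Over all genes tested, 17.1% were called higher and 30% lower in that comparison. The largest rise and the other values below are descriptions of single neighbours. The largest rise among them was that of Tmprss3, 3 genes from Tff3, at 1.69 ± 0.24. Beside Gpc3, Gpc4 rose and Phf6 differed by 0.01 ± 0.15, and beside Slpi, Matn4 differed by -0.01 ± 0.38. Gbe1, next to Robo1, fell by 1.17.

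Markers of other cell types that express some of these genes were measured beside them. Over all genes tested, 17.1% were called higher and 30% lower in tumours against arsenite non-tumour liver. Of the bile duct list 5 of 8 markers were tested and 0 were called in tumours against arsenite non-tumour liver, Krt7, Epcam and Cldn4 were detected on no array, and the summed level was 2.08 to 2.91 in tumours against 1.94 to 2.99. Against control non-tumour liver, where the sum was 1.43 to 2.17, Sox9 was called higher, by 1.53 ± 0.51 (limma adjusted p = 0.030). Goblet and intestinal markers, which bear on Tff3, had 2 of 4 tested members higher, Spdef (at least 4.84-fold) and Vil1 (3.16 ± 0.87), while Fcgbp, Agr2 and Cdx2 were undetected everywhere, and the sum was 268 to 328 against 270 to 279. Pancreatic acinar markers, which bear on Spink3, had 1 of 3 higher, the elastase Cela1 (at least 105-fold), with Prss2, Cpa1, Cpb1, Pnlip and Ptf1a undetected in every group and a sum of 15.0 to 39.9 against 11.2 to 12.1. Keratinocyte markers, which bear on Ly6d, had 2 of 4 higher, Krt5 (at least 3.87-fold) and Trp63 (1.52 ± 0.21), and 2 lower, with Krt14, Krt1, Dsg3 and Ivl undetected and a sum of 14.3 to 18.0 against 6.05 to 8.02. Neutrophil markers, which bear on Slpi, had 2 of 5 lower, Camp (-1.36 ± 0.22) and Ly6g (-0.46 ± 0.15). Of this list, Mpo, Ngp and Cxcr2 were undetected, and the sum was 8.97 to 20.2 against 8.64 to 17.8. Kupffer cell and macrophage markers had 6 of 8 lower (39.1 to 74.8 against 119 to 160.04), endothelial markers 3 of 8 lower and 1 higher (55.7 to 76.2 against 94.8 to 115), and stellate cell and fibroblast markers 4 of 8 higher and 3 lower (22.2 to 32.7 against 69.2 to 75.2). Of B and plasma cell markers, which also bear on Ly6d, 5 were tested and 2 were called higher, Jchain (1.32 ± 0.40, limma adjusted p = 0.019) and Mzb1 (at least 2.01-fold), and 1 lower, Sdc1 (-0.60 ± 0.15). Of hepatocyte markers 1 of 8 was higher, Apoa1 (1.17 ± 0.17), and 2 were lower, Cps1 (-2.13 ± 0.37) and Tat (-2.63 ± 0.29). Spdef, Cela1, Krt5 and Mzb1 passed the filter only through tumours, which favours their higher calls. The lower calls of Ly6g, Krt10 (keratinocyte) and Pdgfrb (stellate cell) were lost with the 75th percentile of detected probes. Their limma adjusted p there was 0.14, 0.089 and 0.24. The part of these shifts in the values of the 8 genes was not tested.

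The comparisons without tumours use the same 12 arrays on whose signals the genes were selected, so their p-values are not fully independent of that choice. None of the 8 genes was called by limma between arsenite non-tumour and arsenite normal liver (0% of all genes called), between arsenite non-tumour and control non-tumour liver (0.00552% of all genes, 1 gene), or between arsenite normal and control non-tumour liver (0% of all genes). Over all genes, 6.84%, 5.64% and 6.54% had an unadjusted p under 0.05 in these comparisons, and of the markers detected in the groups compared, Tff3 did in the first and Cbr3 in the second. The relatives gave 0 calls of 90 in each. These p-values measure the spread between numbered samples that may not all be separate mice, and the fit pools the spread of tumours with that of the other groups.

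Tff3 had the largest difference among the 8. Arsenite non-tumour liver lay below arsenite normal liver by 2.64 ± 0.77 on the log2 scale (95% interval -4.35 to -0.94, unadjusted p = 0.0060, limma adjusted p = 0.60), and the difference was -1.61 without non-tumour array 3, which did not detect the gene, and -3.49 without non-tumour array 2. All 3 normal arrays exceeded all 3 non-tumour arrays, and an exact 2-sided permutation test gave p = 0.10, the smallest that 3 against 3 arrays allow. Arsenite normal liver also exceeded control non-tumour liver without overlap, by 1.59 ± 0.77 (interval -0.11 to 3.30, limma adjusted p = 0.80). Groups did not overlap in 15.2% and 13.5% of all genes in these comparisons.

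Cbr3 was higher in arsenite non-tumour than in control non-tumour liver by 0.30 ± 0.13 (interval 0.01 to 0.58, unadjusted p = 0.044, limma adjusted p = 0.87), and the groups overlapped. Non-overlapping groups were seen there in 10.5% of all genes. No array of either group detected Gpc3 or Robo1, whose differences outside tumours are therefore background. Ly6d in arsenite non-tumour liver lay -0.87 ± 0.58 from normal and -0.82 ± 0.58 from control liver, Slpi -0.78 ± 0.52 and -0.54 ± 0.52, and Spink3 -0.72 ± 0.43 and -0.27 ± 0.43, none of them past the threshold. For Golm1 the 3 differences were 0.04, -0.04 and -0.08, and their 95% intervals together ran from -0.36 to 0.31, which leaves room only for small shifts. The intervals of Ly6d, Slpi and Spink3 reached from -2.15 to 1.41, so 3 arrays per group did not bound these genes to within 2-fold.

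**Figure D5:**
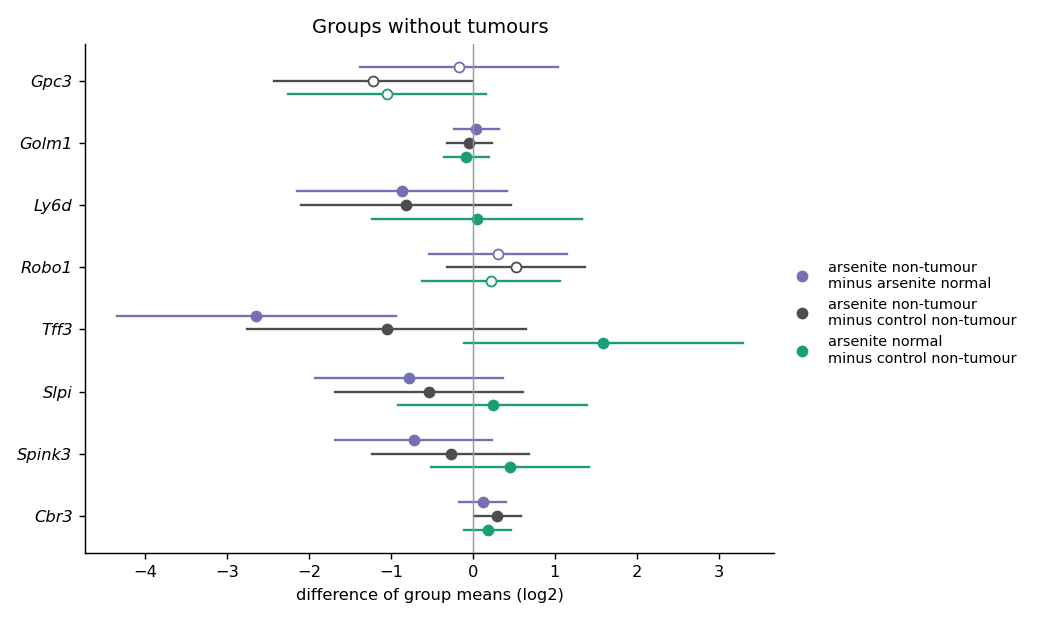
Differences between the groups without tumours (x axis, log2) for the 8 genes (y axis), with 95% intervals of the limma fit (n = 3 arrays per group). Open points are genes that no array of either group detected. Among detected genes, 2 intervals exclude 0 before adjustment, that of Tff3 in arsenite non-tumour minus normal liver (-4.35 to -0.94) and that of Cbr3 in arsenite non-tumour minus control liver (0.01 to 0.58).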

How the data were processed

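Total liver RNA of 12 samples was labelled with Cy3 and hybridised to 1-colour Agilent arrays. The deposited intensity values are background-corrected processed signals of 59305 non-control spots per array, made by the authors with Agilent Feature Extraction 10.7.3.1 per the file headers and 12.0.3.1 per the submitters' processing notes. The authors' deposited value table holds a ratio, the processed signal over the array's 75th percentile of all spots. The number of arrays limits the precision.

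Each log2 signal was set relative to the 75th percentile of its own array's non-control spots, spots of a probe were averaged without outlier marks, and the brightest probe stood for a gene. Genes detected, as marked well above background, on the 3 arrays of any group were tested with limma 3.58.1 (R 4.3.3) over all 12 arrays, with 1 mean per group and Benjamini-Hochberg adjustment over 18101 genes. Where no array of a group detected a probe, a fold was bounded by the dimmest detected signal of each array, or the probe's own signal where higher, and is written "at least". Such bounds hold for the processed signals only. The labels do not say that samples came from separate animals.

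The members and lists were chosen with earlier results of these data known. Named genes were the 8 markers, their listed relatives, cell type markers and the 2 most alike genes per marker. One item is not reported here. One listed name, Pi3, had matched a serpin by synonym and was dropped after values were seen. Sample numbers met the pairing rule only for tumours against arsenite non-tumour liver, where residuals of equal numbers correlated at 0.146, 0.141 and 0.229 and those of unequal numbers at -0.160 to -0.0045. The origin of this pairing is the data, since the labels name no animals. In simulated data with the measured gene means and spreads and independent noise, 200 of 18101 genes were changed in tumours. There limma recovered 65% of log2 changes of 1 and 91% of those of 2, with 14 false calls. The real comparison called 47.1% of genes, so these rates check the fit and are not those of the real data. Probe positions are those of the array's mm9 annotation. Alternatives were other scalings, normexp background correction, the value table, other filters and probe rules, array weights, smaller fits, the block, and each array left out.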

Additional observations from a re-analysis of the deposited data

How the results depend on the processing

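The 8 genes' tumour differences were recomputed 561 times under other settings and with arrays left out. None reversed, 19 moved by more than the spread between replicates, and 3 changed sign, all of Cbr3, whose groups overlap (against arsenite normal liver 0.10 with scaling to the median of all spots and 0.03 with the 75th percentile of detected probes, against control liver -0.05 without tumour 1). Gpc3 against arsenite normal liver was 931-fold on measured background without arsenite normal array 2. All 585 recomputed differences without tumours kept their side of the threshold, and 22 changed sign. The adjusted p of Tff3 in arsenite non-tumour against normal liver was at least 0.19, with differences from -3.49 to -1.60. Genes called between tumours and arsenite normal liver numbered 14219 without the filter. Between arsenite non-tumour and normal liver they numbered 1 with scaling to the median, 1 with detection required on all arrays, 5 with array weights and 0 to 16 with an array left out. Between arsenite non-tumour and control liver they numbered 3 with the median, 0 with normexp, 6 without the filter, 0 with detection on all arrays, 4 with array weights, 4 over 6 arrays, 0 with the replicate block over 6 arrays, 0 over the 9 arrays outside tumours and 0 to 8 with an array left out. Between arsenite normal and control liver array weights gave 9 and left-out arrays 0 to 12. Higher genes made up 36.4% of calls between tumours and arsenite non-tumour liver, against 47.7% with quantile normalisation and 53.4% with the 75th percentile of detected probes. Against arsenite normal liver they made up 35.7%, against 48.3%, 50.7% and, with the median, 59.5%, and against control liver 34.3%, against 46.6%, 50.8% and 53.6%. The replicate block gave 7127 calls over 6 arrays and 8430 over 12 between tumours and arsenite non-tumour liver, and apart from the calls lost or gained that are named with the relatives it changed none of their calls there. Slide as a block could not be fitted. Signals of undetected probes give only bounds, and 3 arrays per group limit every interval.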

Other observations

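Arsenite normal liver stood above all 6 other non-tumour arrays in 314 of 18101 genes (1.73%) and below all 6 in 465 (2.57%). Tff3 was 1 of the genes above, and 0 of the 8 genes lay below. Of the 90 tested relatives 2 lay below and 4 above, the latter being Gpc1, Srgap2, Wfdc12 and Wfdc15b. Both inhibitor genes, which carry the WAP fold of Slpi, were also higher in tumours. Wfdc12 read -0.48, -0.19 and -0.72 in arsenite normal liver, against -2.12 to -1.48 in control non-tumour liver and -1.74 to -1.32 in arsenite non-tumour liver. Wfdc15b read 2.39, 2.24 and 1.87 in normal liver, against 1.09 to 1.67 and 1.24 to 1.66. This pattern was noticed after the values had been seen. The normal arrays alone lay on slide 1, so slide and group cannot be told apart.

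Single arrays outside tumours stood at the ends of the range for a few of the 8 genes. Arsenite non-tumour array 3 was the lowest of the 9 arrays for Golm1 and Slpi, as for 17.7% of all genes tested, and was the only one of the 9 that did not detect Tff3 or Spink3. Arsenite normal array 2 was the highest for Slpi and Spink3, as for 11.8% of all genes. Control non-tumour array 1 was the highest for Golm1 and Ly6d, as for 13.6% of all genes. These counts were not tested, and 8 genes are too few to set them apart from the shares over all genes.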
